A study of Mus musculus with 7 samples.

Results

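Skeletal muscle burns glucose by glycolysis and stores it as glycogen, and 35 enzymes and regulators of these routes were followed by their gene symbols in tibialis anterior (TA), a shin muscle made mostly of fast-twitch fibres. Of these, 34 were among the 12239 genes measured, with 18 of glycolysis and 16 of glycogen metabolism, while *Eno1* was not analysed here. RNA from whole TA muscle was sequenced from male FVBN mice aged 5 to 6 months. This age is that of the sample titles, and the paper elsewhere gives 3 to 5 or 3 to 6 months for young TA muscle. The wild-type group (WT, n = 4) was compared with *Mybpc2* knockout mice (C2-/-, n = 3), in which a Neo cassette between LoxP sites stands in place of exons 2 to 22 of *Mybpc2*, the gene of fast myosin-binding protein C. The series' design text gives 4 animals in each group, whereas the sample titles name 3 C2-/- samples. Whether each library came from a separate animal is not stated sample by sample, so p-values measure the spread between these libraries. In RNA of whole muscle, fewer cells of a type and less RNA per cell cannot be told apart.

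Glycolysis splits glucose into pyruvate and yields ATP without oxygen, and fast-twitch fibres depend on it during short, strong contractions. Glycogen is their local glucose store. Glycogen phosphorylase, switched on by phosphorylase kinase when calcium rises, breaks it down, and glycogen synthase and the branching enzyme build it. Muscle uses its own forms of several of these enzymes, among them *Pygm*, *Pgam2*, *Eno3* and *Pfkm*.

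Levels are log2 CPM (counts per 1e6 scaled reads), changes are C2-/- minus WT on that log2 scale with their standard error (SE) from limma, and the error of a group is the SD. A gene was called at a limma adjusted p under 0.05, taken over all 12239 genes, together with a fold change above 1.5. The libraries held 2613277 to 15464499 reads, and WT replicate 4 (4683853 reads) was the only WT library within the C2-/- range of 2613277 to 4917936, so depth and genotype cannot be told apart. *Mybpc2*, the targeted gene, stood at 12.41 to 12.85 in WT and at -0.47 to 1.67 in C2-/- (change -11.82 on the log2 scale, SE 0.41, limma adjusted p = 4.85e-07), so each library carried the genotype of its label. The muscle fibre markers *Acta1* and *Ckm* were among the most abundant transcripts in WT, at 15.26 ± 0.07 and 14.41 ± 0.19 (n = 4). WT replicate 4 stood apart from the other WT libraries in several members, and where leaving it out changed the call of a member or moved its uncorrected change by more than 1.5 times, the value without it is given. Across 12167 genes with a known GC content (the share of G and C bases in the transcript), Spearman's rho of the log2 change with GC content was -0.68. It was -0.50 across the 33 members with a known GC content. Both are descriptions across genes, which share libraries and are not replicates. The members with a known GC content were therefore also compared after a GC correction, in which the trend of the log2 values with GC content was made the same in every library.

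The difference in base composition among the members can be seen in their coding exons. The 2 stretches below are the middle 120 bases of the longest coding exon of *Gaa*, which had the highest transcript GC content of all called members (59.5%), and of *Ppp1r3a*, which had the lowest (36.7%). Capitals mark G and C, the bases are given 5′ to 3′ on the coding strand, and positions are GRCm38. The *Gaa* stretch (exon 2, plus strand, chr11:119270346-119270465) holds 73 such bases and the *Ppp1r3a* stretch (exon 4, minus strand, chr6:14718735-14718854) holds 49.
Gaa: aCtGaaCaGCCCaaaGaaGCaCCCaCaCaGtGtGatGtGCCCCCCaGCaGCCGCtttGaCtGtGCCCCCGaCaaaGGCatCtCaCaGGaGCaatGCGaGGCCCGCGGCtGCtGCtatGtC
Ppp1r3a: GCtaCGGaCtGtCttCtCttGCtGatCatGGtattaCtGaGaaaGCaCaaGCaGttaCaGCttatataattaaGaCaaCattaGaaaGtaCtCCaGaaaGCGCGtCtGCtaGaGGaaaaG

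Most glycolysis transcripts were lower in C2-/- muscle. Of the 18 measured, 11 were called lower, 1 was called higher and 6 were not called, where 25.0% of all genes were called lower and 20.2% higher. The median log2 change of the 18 was -1.24, beside -0.14 over all genes. In 10 of them all C2-/- libraries lay below all WT libraries, which was so for 26.7% of all genes. Together the 18 genes took 4.41% to 4.81% of the reads of each WT library and 2.00% to 2.59% of each C2-/- library. After the GC correction only *Pgk1* and *Tpi1* were called lower and *Gapdh* higher, where 8.32% of all genes were called lower and 12.3% higher. The median of the 18 was then -0.25, beside 0.02 over all genes.

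The enzymes that trap glucose and commit it to glycolysis were examined first. *Hk2*, the insulin-responsive hexokinase of muscle, stood at 8.51, 8.65, 8.66 and 8.61 in WT replicates 1 to 4 and at 8.11, 7.94 and 7.73 in C2-/- replicates 1 to 3. All C2-/- libraries were below all WT libraries, and *Hk2* fell 1.60-fold (log2 change -0.68, SE 0.15, limma adjusted p = 0.00505). It was not called without C2-/- replicate 3 (-0.58), with each library centred on its median (-0.52) or after the GC correction (-0.19, limma adjusted p = 0.363). *Hk1*, the widespread hexokinase, had few reads, with 171, 165, 205 and 30 in WT and 11, 21 and 7 in C2-/-. Its values were 3.48, 3.47, 3.74 and 2.79 in WT and 1.98, 3.01 and 0.63 in C2-/-. The groups overlapped, because C2-/- replicate 2 lay above WT replicate 4. *Hk1* was called lower (log2 change -1.496, SE 0.54, limma adjusted p = 0.0435), but 5 of the 7 fits without 1 library lost the call. The changes were -1.46, -1.46 and -1.37 without WT replicates 1, 2 and 3, -1.55 without C2-/- replicate 1 and -0.88 without C2-/- replicate 3. GC-corrected, the change was -0.26 (limma adjusted p = 0.769).

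*Gpi1*, the isomerase that turns glucose phosphate into fructose phosphate, was 10.19, 10.45, 10.19 and 10.30 in WT and 8.95, 8.82 and 9.003 in C2-/-. *Pfkm*, the muscle phosphofructokinase and the main control point of the pathway, was 12.22, 12.39, 12.25 and 11.78 in WT and 10.74, 10.66 and 10.58 in C2-/-. In both genes the C2-/- libraries lay close together and more than 1 log2 unit below the lowest WT library. *Gpi1* fell 2.56-fold (log2 change -1.36, SE 0.15, limma adjusted p = 0.000302) and *Pfkm* 2.83-fold (-1.499, SE 0.20, limma adjusted p = 0.000583). After the GC correction the change of *Gpi1* was -0.58 (limma adjusted p = 0.0329), just inside the fold limit of 0.585, and that of *Pfkm* was -0.53 (limma adjusted p = 0.0609).

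The splitting of fructose bisphosphate and the handling of its products followed. *Aldoa*, the muscle aldolase, had the highest WT level per kilobase of all members with a known length, at 13181 ± 487 CPM per kb of transcript. Its log2 values were 14.30, 14.38, 14.25 and 14.34 in WT and 13.32, 12.80 and 12.61 in C2-/-. *Tpi1*, triose phosphate isomerase, was 10.87, 11.17, 11.10 and 10.85 in WT and 9.67, 9.33 and 9.53 in C2-/-. Neither gene overlapped between the groups. *Aldoa* fell 2.66-fold (log2 change -1.41, SE 0.26, limma adjusted p = 0.00244) and *Tpi1* 2.80-fold (-1.49, SE 0.17, limma adjusted p = 0.000336). With the GC correction the *Aldoa* change was -0.10 (limma adjusted p = 0.819), while *Tpi1* was still called (-0.72, SE 0.15, limma adjusted p = 0.00919).

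*Pgk1*, the phosphoglycerate kinase that makes the first ATP of the pathway, fell more than any other glycolysis member. The gene lies on the plus strand of chromosome X (GRCm38, 106187100 to 106203699). Its log2 values were 9.67, 9.68, 9.80 and 9.50 in WT and 7.61, 7.66 and 7.79 in C2-/-. All C2-/- libraries were thus far below every WT library, WT replicate 4 included. The fall was 3.93-fold (log2 change -1.98, SE 0.14, limma adjusted p = 0.000162). After the GC correction the change was -1.85 (SE 0.14, limma adjusted p = 0.000338), and over the fits without 1 library it ranged from -2.03 to -1.93. Of the 50-base stretches of its transcript, 68.0% also occur in transcripts of other genes, most of them in *Pgk1-rs7*, so reads may have been shared between these copies.

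*Gapdh*, the glyceraldehyde phosphate dehydrogenase often used as a reference gene, was the only glycolysis member called higher. Its position is chromosome 6, 125161852 to 125166467 (GRCm38, minus strand). Its log2 values were 9.76, 9.996, 9.85 and 11.62 in WT replicates 1 to 4 and 11.12, 11.46 and 11.80 in C2-/-. WT replicate 4 lay among the C2-/- libraries and the other WT libraries lay below all of them. Its change came to 1.15 (SE 0.41, limma adjusted p = 0.0417) and 2.42 after the GC correction (limma adjusted p = 0.0102). Without WT replicate 4 it was 1.59 (limma adjusted p = 0.000307). The call was lost without any one of the other 6 libraries. The changes were then 0.97, 1.05 and 1.001 without WT replicates 1, 2 and 3, and 1.32, 1.15 and 0.98 without C2-/- replicates 1, 2 and 3. Of its 50-base stretches, 82.5% also occur in transcripts of 222 other annotated genes, so the level of *Gapdh* itself is uncertain. Shares over 10% were also found for *Pgam1* (41.5%), *Pkm* (34.4%), *Ldhb* (27.0%), *Gpi1* (25.3%), *Ldha* (16.6%) and *Aldoa* (13.5%).

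The last steps lead to pyruvate and lactate. *Pgam2*, the muscle phosphoglycerate mutase, was 10.80, 10.89, 10.95 and 10.94 in WT and 9.60, 9.59 and 9.91 in C2-/-. *Eno3*, the muscle enolase, was 12.23, 12.42, 12.44 and 12.15 in WT and 11.03, 10.91 and 11.29 in C2-/-. *Pkm*, pyruvate kinase, was 12.09, 12.35, 12.22 and 12.28 in WT and 11.28, 11.14 and 10.78 in C2-/-. In each of these genes every C2-/- library lay below every WT library. *Pgam2* fell 2.29-fold (log2 change -1.20, SE 0.16, limma adjusted p = 0.000588), *Eno3* 2.35-fold (-1.23, SE 0.19, limma adjusted p = 0.00112) and *Pkm* 2.25-fold (-1.17, SE 0.20, limma adjusted p = 0.00154). None of them was called after the GC correction, with changes of 0.11 for *Pgam2*, -0.29 for *Eno3* and 0.25 for *Pkm* (limma adjusted p = 0.737, 0.297 and 0.484).

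*Ldha*, the lactate dehydrogenase subunit typical of fast muscle, was 11.47, 11.81, 11.78 and 11.88 in WT and 11.49, 11.21 and 10.94 in C2-/-, with C2-/- replicate 1 just above WT replicate 1. The log2 change was -0.52 (95% interval -0.98 to -0.07, limma adjusted p = 0.0566) and was not called. It was called without C2-/- replicate 1 (-0.66, limma adjusted p = 0.0319), and it was -0.10 after the GC correction (limma adjusted p = 0.742). *Ldhb*, the subunit typical of oxidative tissue, ranged from 4.00 to 7.09 in WT and from 5.45 to 6.01 in C2-/-. WT replicate 4 was its lowest library, and the change of -0.18 (SE 0.63, interval -1.58 to 1.23) was -0.79 without it. The GC-corrected change of *Ldhb* was 0.51 and not called. *Pgam1*, the widespread mutase, was near the detection limit, with 143, 111, 143 and 9 reads in WT and 4 to 11 in C2-/-. Its change of -1.29 (SE 0.62) was not called with WT replicate 4 (limma adjusted p = 0.109) and was -1.79 without it (limma adjusted p = 0.0131). The GC-corrected change of *Pgam1* was -0.63, or -1.08 without WT replicate 4, and neither was called.

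The *Pfkfb* enzymes set the level of the fructose bisphosphate that activates phosphofructokinase, and 1 of the 4 measured was called, counting *Pfkfb2* (0.07, and 0.19 without WT replicate 4) from outside the list. *Pfkfb4* was 5.98, 6.20, 6.03 and 6.44 in WT and 4.18, 4.27 and 4.71 in C2-/-, so that the groups lay far apart. It fell 3.43-fold (log2 change -1.78, SE 0.21, limma adjusted p = 0.000375), and its change of -0.79 after the GC correction was not called (limma adjusted p = 0.0555). *Pfkfb3* was 7.90, 9.47, 8.87 and 5.71 in WT and 7.39, 7.48 and 5.34 in C2-/-. WT replicate 4 was again beside the lowest C2-/- library. The change of -1.25 (SE 0.81, limma adjusted p = 0.223) became -2.01 without WT replicate 4 and was then called (limma adjusted p = 0.0212), but it was -0.76 without WT replicate 2 and -0.55 without C2-/- replicate 3. Corrected for GC content it was -1.04 with all libraries and -1.77 without WT replicate 4 (limma adjusted p = 0.0556), and neither was called. *Pfkfb1*, known from liver and muscle, overlapped between the groups (5.597 to 5.88 in WT and 5.34 to 5.70 in C2-/-), as did *Fbp2*, the muscle fructose bisphosphatase of the reverse route (4.08 to 5.30 and 3.34 to 5.15). Their changes were -0.19 and -0.33, or -0.24 and 0.04 after the GC correction, and neither was called. Without WT replicate 4 *Fbp2* was at -0.09.

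**Figure D1:**
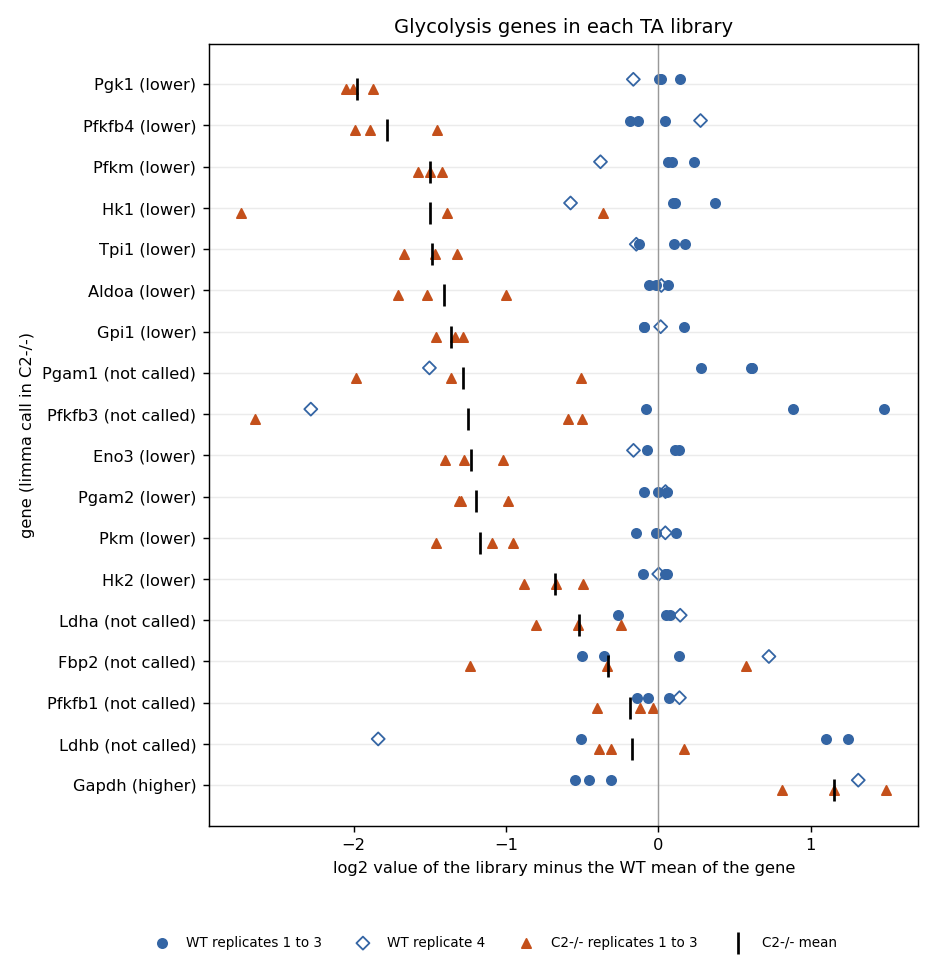
Log2 value of each library minus the WT mean of that gene (x axis) for the 18 measured glycolysis genes, ordered by their change, with 4 WT libraries (circles, and an open diamond for WT replicate 4), 3 C2-/- libraries (triangles) and the C2-/- mean (bar). The 10 genes called lower other than Hk1 keep all triangles to the left of every WT symbol, whereas in Gapdh, Pgam1 and Pfkfb3 the open diamond lies among or beside the triangles.

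Glycogen transcripts moved in both directions. Of the 16 measured, 7 were called lower, 2 were called higher and 7 were not called, beside the 25.0% and 20.2% of all genes. Their median log2 change was -0.53, beside -0.14 over all genes. All C2-/- libraries lay below all WT libraries in 7 genes and above them in 3, which was so for 26.7% and 22.6% of all genes. The 16 genes took 1.60% to 1.77% of the reads of each WT library and 1.03% to 1.15% of each C2-/- library. After the GC correction 5 of 15 were called lower and 0 higher by limma, and 2 of the 5 (*Phkg1* and *Epm2a*) were among the genes called before it, beside 8.32% lower and 12.3% higher over all genes. The other 3 were *Phkb*, *Ugp2* and *Ppp1r3c*. The median of the 15 was then -0.26, beside 0.02 over all genes.

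Glycogen breakdown rests on phosphorylase and its kinase. *Pygm*, the muscle glycogen phosphorylase lacking in McArdle disease, was 13.13, 13.39, 13.25 and 13.14 in WT and 12.01, 11.72 and 12.14 in C2-/-. Every C2-/- library was below every WT library, and *Pygm* fell 2.42-fold (log2 change -1.27, SE 0.21, limma adjusted p = 0.00154). Its change was -0.26 after the GC correction (limma adjusted p = 0.396). *Pygb*, the brain form, was a rare transcript in TA, with 99, 98, 78 and 87 reads in WT and 4, 4 and 0 in C2-/-. Its log2 values were 2.70, 2.72, 2.35 and 4.32 in WT and 0.63, 0.75 and -3.27 in C2-/-, the last being the value of a gene with no read. WT replicate 4 was the highest library. Its change came to -3.65 (SE 0.96, limma adjusted p = 0.0117), was -2.73 with 2 reads in place of 0.5 added before the log, and was -2.71 after the GC correction (limma adjusted p = 0.0739). It was -2.33 without C2-/- replicate 3, still called.

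Phosphorylase kinase couples contraction to glycogen breakdown. The muscle catalytic subunit *Phkg1* was 9.11, 9.37, 9.18 and 9.16 in WT and 8.38, 7.83 and 8.37 in C2-/-. All C2-/- libraries were lower, by 2.01-fold on average (log2 change -1.01, SE 0.17, limma adjusted p = 0.00176), and the call held after the GC correction (-0.85, limma adjusted p = 0.00563). The regulatory subunits *Phka1* (log2 change -0.40, 95% interval -0.88 to 0.09, and -0.21 without WT replicate 4) and *Phkb* (-0.06, -0.47 to 0.34, and 0.0093 without it) were not called. With the GC correction *Phkb* was -0.78 (limma adjusted p = 0.00790) and was then called lower, and *Phka1* was -0.62 (limma adjusted p = 0.0584). Differences between the subunits were not tested, apart from the ratio of *Phkg1* to *Phkg2*. The liver and testis form *Phkg2* stood at 1.97 to 3.47 over all libraries and was not called. Its change was -0.49 (SE 0.39), -0.84 to -0.096 over the fits without 1 library, and 0.87 after the GC correction. *Phkg2* shares 34.5% of its 50-base stretches with *Ccdc189*, and *Phkg1* shares 25.0%, most with *Sumf2*. Whether the counting used strand is not stated.

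On the side of synthesis, *Gys1*, the muscle glycogen synthase, was 9.59, 9.63, 9.72 and 9.58 in WT and 8.42, 8.48 and 8.19 in C2-/-. The groups were more than 1 log2 unit apart, with a 2.40-fold fall (log2 change -1.26, SE 0.15, limma adjusted p = 0.000342) that was -0.17 after the GC correction (limma adjusted p = 0.526). *Gbe1*, the branching enzyme, was 6.98, 6.57, 6.62 and 6.97 in WT and 8.14, 8.35 and 7.68 in C2-/-. Here every C2-/- library was higher, by 2.41-fold on average (log2 change 1.27, SE 0.20, limma adjusted p = 0.00114), and the change was 0.46 after the GC correction (limma adjusted p = 0.109). *Gyg*, glycogenin, the protein primer of the granule, was 8.77 to 8.92 in WT and 8.76 to 9.37 in C2-/-, a change of 0.16 (95% interval -0.22 to 0.55).

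*Ugp2*, which makes the UDP-glucose that synthase uses, was 9.67, 9.69, 9.54 and 9.62 in WT and 10.04, 10.24 and 10.35 in C2-/-. All C2-/- libraries lay above all WT libraries, but the change of 0.58 (SE 0.15, limma adjusted p = 0.0113) was just under the fold limit. It was called without WT replicate 1 (0.59), WT replicate 2 (0.60) or C2-/- replicate 1 (0.67), and it turned to -0.61 after the GC correction and was then called lower (limma adjusted p = 0.0225). *Pgm2* was 10.29, 10.60, 10.39 and 10.26 in WT and 9.45, 8.78 and 9.51 in C2-/-, a 2.20-fold fall without overlap (log2 change -1.14, SE 0.21, limma adjusted p = 0.00211). The symbols *Pgm1* and *Pgm2* were exchanged between annotation versions, so it is unsure which phosphoglucomutase this row is, and no position, length or GC-corrected value is given for it.

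The proteins that bring phosphatase to the granule and those that clear it were taken last. *Ppp1r3a*, the muscle glycogen-targeting subunit of protein phosphatase, was 8.75, 8.80, 8.62 and 9.60 in WT and 10.17, 10.61 and 10.73 in C2-/-. WT replicate 4 was the WT library nearest to C2-/-, yet below all of them. *Ppp1r3a* rose 2.95-fold (log2 change 1.56, SE 0.25, limma adjusted p = 0.00125), and the change was 0.13 after the GC correction (limma adjusted p = 0.634). The related subunit *Ppp1r3c* was 8.90, 8.61, 8.43 and 9.23 in WT and 8.03, 8.57 and 8.04 in C2-/-, so that the groups overlapped. Its change was -0.58 (SE 0.22, limma adjusted p = 0.0537), -0.96 after the GC correction (limma adjusted p = 0.0117), -0.70 without WT replicate 3 and -0.76 without C2-/- replicate 2, and the last 3 were called.

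*Gaa*, the lysosomal glucosidase lacking in Pompe disease, was 8.27, 8.37, 8.29 and 7.53 in WT and 6.57, 6.16 and 6.16 in C2-/-. WT replicate 4 lay between the other WT libraries and C2-/-, and no C2-/- library reached it. *Gaa* fell 3.54-fold (log2 change -1.82, SE 0.22, limma adjusted p = 0.000426), and its change of -0.19 after the GC correction was not called (limma adjusted p = 0.411). *Epm2a*, which encodes laforin, a phosphatase that removes phosphate from glycogen, was 5.40, 5.41, 5.34 and 4.36 in WT and 4.23, 3.42 and 3.55 in C2-/-. It was lower in every C2-/- library, although C2-/- replicate 1 was only slightly below WT replicate 4. Its change came to -1.40 (SE 0.33, limma adjusted p = 0.00681) and -1.48 after the GC correction (limma adjusted p = 0.0101), and it was called in all 7 fits without 1 library (-1.65 to -1.24). *Stbd1*, a glycogen-binding protein, ranged from 5.47 to 7.03 in C2-/- and from 5.69 to 6.28 in WT. Its change of 0.38 (SE 0.35), or 0.80 after the GC correction, was not called, but was 0.88 and called without C2-/- replicate 3 (limma adjusted p = 0.0144).

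**Figure D2:**
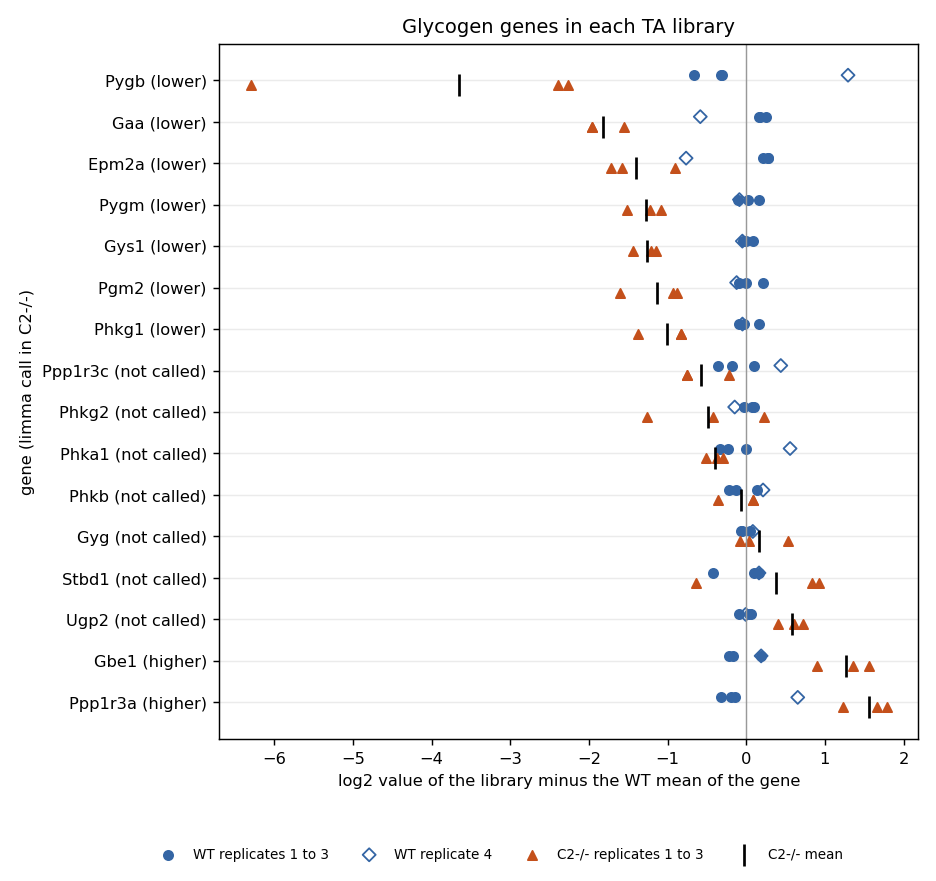
Log2 value of each library minus the WT mean of that gene (x axis) for the 16 measured glycogen genes, ordered by their change, with WT libraries as circles (open diamond for WT replicate 4), C2-/- libraries as triangles and the C2-/- mean as a bar. The 7 genes called lower lie at the top with all triangles to the left of the WT symbols, and Gbe1 and Ppp1r3a at the bottom have all triangles to the right.

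Base composition moved with these changes. The 17 members called lower that have a known GC content had a median of 54.7% (48.4% to 59.5%), the 3 called higher a median of 42.5% (36.7% to 56.6%), and the 13 not called a median of 50.2%, beside 50.2% over all genes. The glycolysis members had a median of 53.5% and the glycogen members 48.7%. Of the 20 called members that could be corrected, 5 were called in the same direction after the correction, namely *Tpi1*, *Gapdh*, *Pgk1*, *Phkg1* and *Epm2a*. The correction takes out any change that genes of like GC content share, from whatever source. The part of base composition in the results was not tested beyond this. Quantile normalization, median centring of each library, 2 reads added before the log and a filter on the mean level moved the median change of all genes by 0.19, 0.16, 0.10 and 0.20. With the first and second of these the glycolysis median was -1.13 and -1.08 and the glycogen median -0.74 and -0.37, each lower than the median of all genes.

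**Figure D3:**
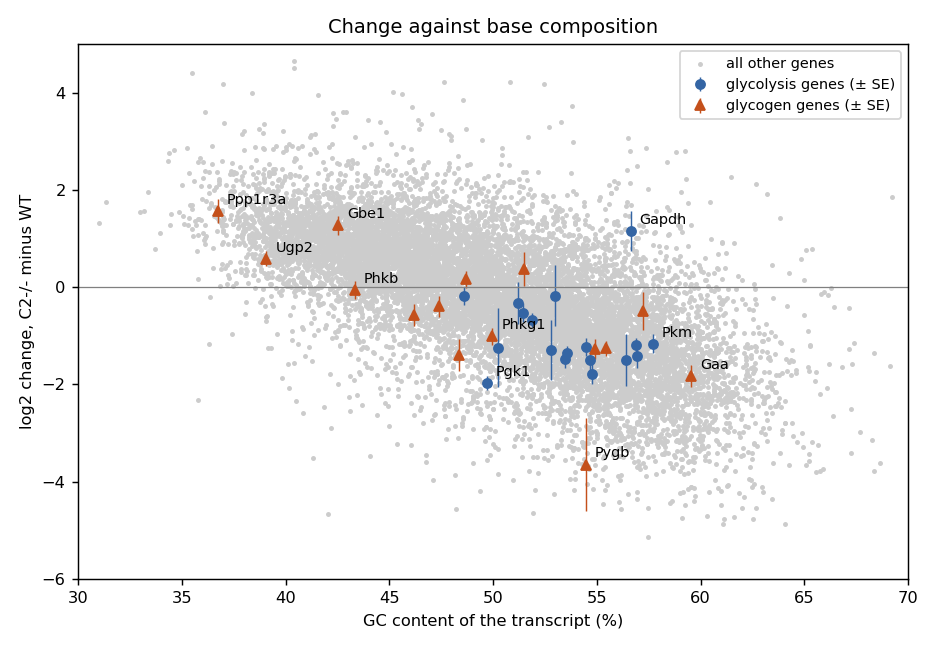
Log2 change in C2-/- (y axis) against the GC content of the transcript in percent (x axis) for 18 glycolysis genes (circles), 15 glycogen genes (triangles), each with its SE, and other genes in grey, with 6 of 12167 genes outside the axes. Low-GC genes such as Ppp1r3a and Gbe1 lie high and high-GC genes such as Gaa and Pkm lie low, as do the grey points around them, while Pgk1 lies below and Gapdh above genes of like GC content.

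**Figure D4:**
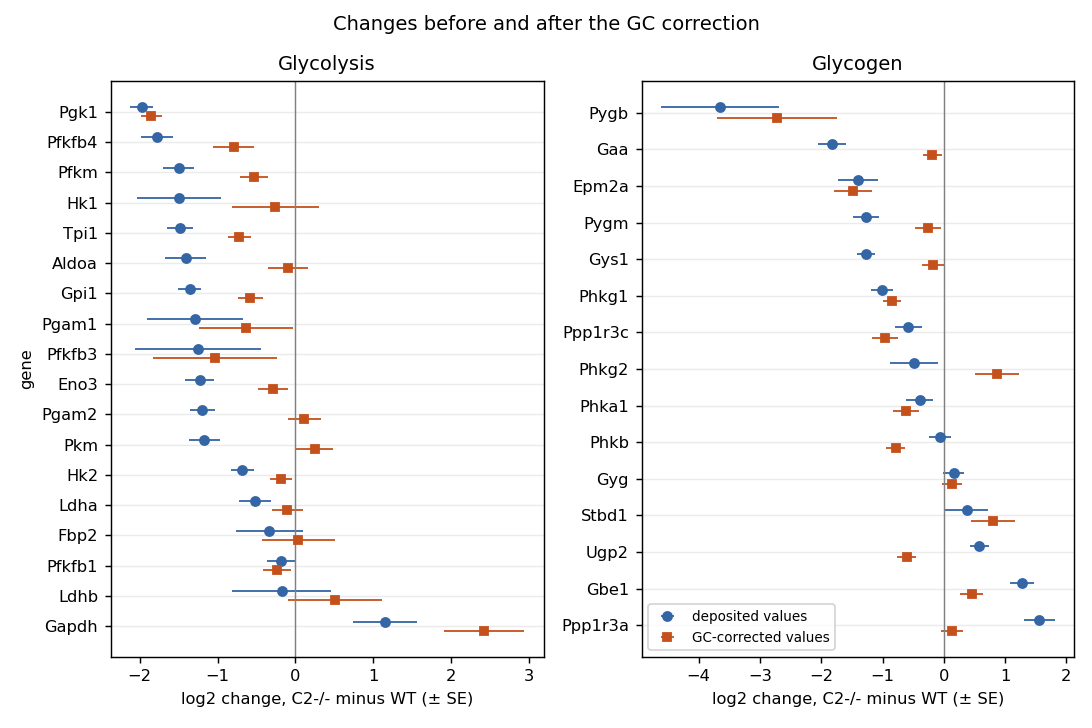
Log2 change with its SE (x axis) of each member with a known GC content, from the deposited values (circles) and from the GC-corrected values (squares), with glycolysis on the left and glycogen on the right on different scales. Squares lie near 0 for Aldoa, Pgam2, Gys1, Gaa and Ppp1r3a, near the circles for Pgk1, Phkg1 and Epm2a, and farther from 0 than the circle for Gapdh and Phkb.

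Ratios of paired genes within a library do not depend on its scaling factor, and they asked whether muscle forms and widespread forms changed unequally. Of 7 pairs planned, 6 could be computed, and none passed an adjusted p of 0.05 in a two-sided exact permutation test of genotype, which with 35 arrangements can give no p below 0.02857. Only 1 pair had an unadjusted p under 0.05. This was *Pygm* to *Pygb*, with log2 ratios of 10.43, 10.67, 10.90 and 8.83 in WT and 11.38, 10.96 and 15.41 in C2-/-. All C2-/- ratios were higher, by 2.38 on average (exact permutation p = 0.02857, adjusted p = 0.1714), although the ratio of C2-/- replicate 3 rests on a *Pygb* count of 0. Without that library the difference was 0.96, and without WT replicate 4 it was 1.92. For *Phkg1* to *Phkg2* the ratios were 5.77, 6.06, 5.97 and 6.06 in WT and 5.56, 5.86 and 4.90 in C2-/-, where only C2-/- replicate 2 lay within the WT range. The difference was -0.52 (exact permutation p = 0.05714, adjusted p = 0.1714), and it ran from -0.73 to -0.26 with 1 library left out. It was -1.71 with GC-corrected values (exact permutation p = 0.02857, adjusted p = 0.08571).

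Synthase was also set against phosphorylase. The log2 ratio of *Gys1* to *Pygm* was -3.60 ± 0.11 in WT (n = 4) and -3.59 ± 0.36 in C2-/- (n = 3), a difference of 0.01 (exact permutation p = 1). The C2-/- ratios ran from -3.96 to -3.23, on both sides of the WT range of -3.76 to -3.54. Quantile normalization turned this difference to -0.59. The differences for *Hk2* to *Hk1* (0.81), *Pgam2* to *Pgam1* (0.09) and *Ldha* to *Ldhb* (-0.35) were smaller than the largest SD of either group, and their groups overlapped. Without WT replicate 4 the difference for *Pgam2* to *Pgam1* was 0.60, and that for *Ldha* to *Ldhb* turned to 0.31. With 1 library left out, the difference for *Hk2* to *Hk1* ran from 0.29 to 1.38. With GC-corrected values the differences for *Hk2* to *Hk1*, *Pgam2* to *Pgam1* and *Ldha* to *Ldhb* were 0.07, 0.75 and -0.61.

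**Figure D5:**
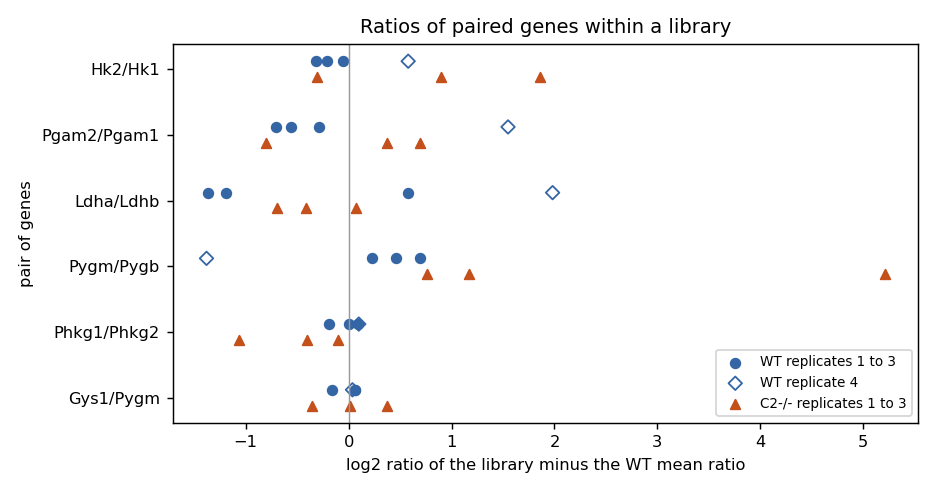
Log2 ratio of 6 gene pairs in each library minus the WT mean ratio (x axis), with WT libraries as circles (open diamond for WT replicate 4) and C2-/- libraries as triangles. The groups lie apart for Pygm/Pygb, where 1 triangle stands more than 5 log2 units out, and they overlap in the other 5 pairs.

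Genes of the same routes outside the list were counted in the same fit. Of 24 further glycolysis genes, 15 were measured, of which 6 were called lower and 1 higher, beside 25.0% and 20.2% of all genes. Of these 15, 1 was called lower and 2 higher after the GC correction, beside 8.32% and 12.3%. *Pfkp*, the platelet phosphofructokinase, rose from 3.96 ± 0.99 (n = 4) to 6.50 ± 0.39 (n = 3; log2 change 2.54, SE 0.47, limma adjusted p = 0.00227), while *Pfkl*, the liver form, fell from 3.21 ± 0.57 to -0.45 ± 1.70 (-3.66, SE 0.75, limma adjusted p = 0.00367). *Pfkl* had 4, 0 and 6 reads in the C2-/- libraries, so the size of its change rests on counts near 0. Both were also called after the GC correction (2.53 and -2.33). Others called lower included *Gapdhs*, *Bpgm*, *Ldhd* and *Gpd1*, none of which was called after the correction. Of 25 further glycogen genes, 22 were measured, with 4 called lower (*Ppp1ca*, *Calm3*, *G6pc3* and *Slc37a4*) and 6 higher (*Pgm2l1*, *Pgm5*, *Ugdh*, *Ppp1cb*, *Gsk3b* and *Calm2*), shares near those of all genes. Of those called, after the GC correction *Ppp1ca* and *Slc37a4* were still called lower and *Pgm5*, *Ugdh* and *Gsk3b* higher, while *Pgm2l1* (0.09), *Ppp1cb* (0.21), *Calm2* (0.21), *Calm3* (-0.05) and *G6pc3* (0.64) were not called. *Slc37a4*, the glucose phosphate transporter of the endoplasmic reticulum, fell by 2.39 (SE 0.18, limma adjusted p = 0.000162) and by 1.28 after the GC correction (limma adjusted p = 0.00188).

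Of 18 genes of glucose, lactate and pyruvate transport and pyruvate oxidation, 17 were measured, with 4 called lower and 5 higher, shares near the 25.0% and 20.2% of all genes. *Slc2a4*, the insulin-regulated glucose transporter GLUT4, was 9.48 ± 0.21 in WT (n = 4) and 7.39 ± 0.50 in C2-/- (n = 3), and fell by 2.09 (SE 0.23, limma adjusted p = 0.000302). *Slc2a3*, another glucose transporter, fell by 4.20 (SE 0.55, limma adjusted p = 0.000571), with 3, 1 and 11 reads in C2-/-. *Slc2a1* (0.04, and 0.33 without WT replicate 4) and *Slc16a1* (0.09, and 0.17), further sugar and lactate carriers of the surface membrane, were not called. *Slc16a3*, the lactate exporter MCT4 of glycolytic fibres, fell by 2.99 (SE 0.27, limma adjusted p = 0.000216) and its partner *Bsg* by 1.77 (SE 0.18, limma adjusted p = 0.000231). Of the 4 called lower, all but *Bsg* were also called after the GC correction, with changes of -0.98 for *Slc2a4*, -4.13 for *Slc2a3* and -1.72 for *Slc16a3*. Those called higher were the mitochondrial pyruvate carrier subunits *Mpc1* (1.20, limma adjusted p = 0.0149) and *Mpc2* (1.16, limma adjusted p = 0.0116), the pyruvate dehydrogenase component *Dlat* (1.11, limma adjusted p = 0.00177), and the regulators *Pdk1* (0.95, limma adjusted p = 0.00146) and *Pdp1* (0.70, limma adjusted p = 0.00917). With the GC correction 3 of the 17 were called lower and 5 higher, beside 8.32% and 12.3% of all genes. Those called higher before it, apart from *Pdp1* (-0.48), were among the 5, as was *Pdk2*, another kinase of the dehydrogenase, which turned from -0.56 to 0.75 (limma adjusted p = 0.0161). In *Mpc1* the value of WT replicate 4 was among those of C2-/-, and in *Mpc2* just below them, and the C2-/- means were 0.23 and 0.24 above it. Without WT replicate 4 the changes were 1.52 for *Mpc1* and 1.47 for *Mpc2*, and both were called.

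Of 7 transcription factors known to act on these genes, 4 were called lower and 1 higher, beside 25.0% and 20.2% of all genes. With the GC correction 2 were called lower and 2 higher, beside 8.32% and 12.3%. *Hif1a*, the oxygen-regulated activator of glycolytic genes, was 4.51 ± 0.10 in WT (n = 4) and 6.15 ± 0.05 in C2-/- (n = 3), a rise of 1.65 (SE 0.18, limma adjusted p = 0.000294) and of 0.70 after the GC correction (limma adjusted p = 0.0274). *Tfeb*, a regulator of lysosomal genes such as *Gaa*, fell by 2.72 (SE 0.27, limma adjusted p = 0.000251), and by 0.76 after the GC correction (limma adjusted p = 0.0459). The others lower were *Mlxip*, still called after the correction (-0.84), and *Esrra* and *Myod1*, which were not (-0.57 and 0.48). *Mlxipl* was not called, although it was called higher after the GC correction (0.98, limma adjusted p = 0.00906). The *Pgk1* promoter is shown because *Pgk1* is a textbook target of HIF and these transcripts moved in opposite directions. It is the 250 bases before the RefSeq start (GRCm38.p6, plus strand, chrX:106186850-106187099), and capitals mark the HIF core, ACGTG or GCGTG on either strand, which occurs 2 times.
Pgk1 promoter: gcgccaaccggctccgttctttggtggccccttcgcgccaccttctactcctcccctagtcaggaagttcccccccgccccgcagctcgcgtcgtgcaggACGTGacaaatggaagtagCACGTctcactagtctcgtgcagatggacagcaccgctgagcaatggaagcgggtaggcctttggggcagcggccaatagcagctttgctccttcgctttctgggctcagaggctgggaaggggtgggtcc
The core was in 38.6% of 32851 promoter windows of this length and in 18 of the 26 members with a single promoter entry. It was in 9 of 14 members called lower, 1 of 3 called higher and 8 of 9 not called. A match is a description of the sequence only.

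Markers of fibres and of other cells moved beside these changes. Of the 6 muscle fibre markers, 4 were called lower and 0 higher by limma, beside 25.0% and 20.2% of all genes, and their summed level was 89642 to 106714 CPM in WT and 33665 to 46280 in C2-/-. Of the 5 type IIb and IIx markers, 3 were called lower, and of 5 measured slow-fibre markers 0 were called (summed level 42.3 to 93.4 CPM in WT and 50.6 to 75.5 in C2-/-). The slow myosin *Myh7* had 0 reads in every C2-/- library and in WT replicate 4. Without WT replicate 4 *Myh7* was called lower (-3.16, limma adjusted p = 0.0109). The type IIa myosin *Myh2* was not called, at -0.20 with WT replicate 4 and -0.89 without it. All 4 fibroblast markers were called higher, with a summed level of 339 to 521 CPM in WT and 1248 to 1424 in C2-/-. Endothelial (5), macrophage (5), adipocyte (3), smooth muscle (3), Schwann cell (3) and erythroid (1) markers gave 1, 0, 0, 0, 0 and 0 called higher and 1, 1, 0, 1, 1 and 1 called lower. The summed levels of these 6 lists overlapped between the groups except for the erythroid marker *Alas2*. Once corrected for GC content, 1 fibre marker was called lower (*Ckm*) and 1 higher (*Tnni2*), 1 type IIb and IIx marker lower (*Pvalb*), and 2 fibroblast markers higher (*Dcn* and *Col1a1*), beside 8.32% lower and 12.3% higher over all genes. The slow-fibre marker *Atp2a2* (0.66), the smooth muscle marker *Myh11* (0.95) and the adipocyte marker *Plin1* (3.81) were then also called higher. The part of these markers in the results on glycolysis and glycogen was not tested.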

How the data were processed

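Reads that passed the authors' quality filter were mapped with HISAT (GRCm38.p6) and counted per gene with featureCounts (1.5.2), and edgeR's TMM method gave the scaling. The deposited values are log2 CPM per library for 12239 genes, in which 0.5 read was added before the log. The reads were recovered as whole numbers for 100% of the values (tolerance 0.01 read) and summed to 2613277 to 15464499 per library. Counting error alone sets a floor of 3 reads, or 0.195 to 1.12 CPM. A second deposited table holds the authors' own limma/voom comparison (fold changes, p-values, scores) and was not used. The gene filter, strand and the treatment of multiply mapped reads are not given in the sources used here.

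limma (3.58.1, R 4.3.3; lmFit, eBayes with trend) was fitted to the deposited values of all genes with genotype as the only term, and was tested on simulated data. P-values were adjusted by Benjamini-Hochberg over all genes and are two-sided. The samples were grouped by their titles. Members and lists were chosen with earlier results of these data known. Every member was named, and genes of the other lists were named where called, with *Mlxipl*, *Slc2a1*, *Slc16a1*, *Pfkfb2*, *Pdk2* and single markers named after their values were seen. Some items withheld for evaluation are not reported here. The fibre markers *Acta1* and *Ckm* served as the tissue check. GC content and length came from 1 GENCODE transcript per gene (12167 genes, 99.4%), and gene positions from RefSeq (11705 matched by symbol and 499 by an older symbol). The GC correction fitted a natural spline (5 degrees of freedom) on GC content in each library and replaced it by the mean curve. Alternatives were voom weights on the recovered reads, eBayes without trend, library quality weights, quantile normalization, median centring, the GC correction, 2 reads added before the log, a mean log2 value of at least 3, other thresholds, a replicate block and leaving out each library.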

Additional observations from a re-analysis of the deposited data

Results flagged for a closer look

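Dixon's test at the 95% level was applied to the 4 WT libraries for 34 members and 6 ratios, and not to C2-/-, which has too few libraries. An outlying library was found in 6 of these 40 values, against about 2 from chance, and in 4 of the 6 it was WT replicate 4. In *Gapdh* WT replicate 4 was high (11.6162 against 9.76 to 9.996 in the other WT libraries). It was low in *Pgam1* (1.11 against 2.90 to 3.23), in *Gaa* (7.53 against 8.27 to 8.37) and in *Epm2a* (4.36 against 5.34 to 5.41). WT replicate 3 was low in *Stbd1* (5.69 against 6.20 to 6.28), and WT replicate 2 was low in the log2 ratio of *Gys1* to *Pygm* (-3.76 against -3.56 to -3.54). Of the 21 called members, 19 had all C2-/- libraries beyond WT replicate 4 in the called direction, the exceptions being *Hk1* and *Gapdh*. Over the 21, the C2-/- mean lay at a median absolute distance of 1.19 from WT replicate 4, and of 1.40 from the mean of the other WT libraries. These members were called in a fit that held WT replicate 4, so the count of 19 was largely set by the calls. The share over all genes was not counted, and the part of depth was not tested.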

How the results depend on the processing

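Of 606 single alternatives for the 34 members, 502 kept the direction and the side of the threshold. A further 54 kept the direction but lost a call, and 23 kept it and gained one. The other 27 turned the sign, and calls lost or gained among them are not in the 54 and 23. Of 21 called members, 18 kept their direction under every alternative run (not *Aldoa*, *Pgam2* and *Pkm*), and *Tpi1*, *Pgk1*, *Phkg1*, *Epm2a* and *Pgm2* kept their call under every alternative run for them, the GC correction not being one for *Pgm2*. The GC correction left 3 glycolysis members called in place of 12, and 5 glycogen members in place of 9. Without WT replicate 4, an alternative chosen after seeing the data, the correction also left 3 and 5. Over all genes it left 2507 called in place of 5528. *Hk1* also lost its call with quantile normalization (-1.27), median centring (-1.34) and without the trend, as did *Gapdh* without the trend. Leaving out 1 library gave 9 to 14 glycolysis and 9 to 10 glycogen members, where the same fits called 4095 to 6136 of all genes. An adjusted p under 0.01 left 3216 of all genes called.

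With the replicate number as a block 14 glycolysis and 9 glycogen members were called, and with the GC correction and the block 4 and 6. Over all genes these fits called 5901 and 2911. *Pfkfb3* was called in both, at -2.01 and -1.77. The numbers share no stated litter or day, and same-numbered deviations correlated at 0.053, -0.064 and -0.053, so they were not taken as pairs. WT replicate 4 has no partner and adds nothing to the block.

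The sign turned with the GC correction, with the block added and without WT replicate 4 for *Pgam2* (0.11, 0.23 and 0.23), *Pkm* (0.25, 0.37 and 0.37), *Ugp2* (-0.61, -0.70 and -0.70), *Fbp2* (0.039, 0.32 and 0.32) and *Phkg2* (0.87, 0.93 and 0.93), for *Aldoa* in the last 2 (0.015 in both) and for *Ldhb* in the first (0.51). It turned for *Phkb* with median centring (0.10) and the block (0.0093), and for *Gyg* with quantile normalization (-0.10). Leaving out 1 library gave -0.79 to 0.24 for *Ldhb*, -0.79 to 0.12 for *Fbp2*, -0.14 to 0.087 for *Phkb* and -0.021 to 0.28 for *Gyg*. Quantile normalization turned the ratios *Pgam2* to *Pgam1* (-0.32), *Ldha* to *Ldhb* (0.15) and *Gys1* to *Pygm* (-0.59, exact permutation p = 0.02857, adjusted p = 0.08571), and 2 reads added turned *Pgam2* to *Pgam1* (-0.10). Leaving out 1 library, these ratios ran from -0.21 to 0.60, -0.80 to 0.31 and -0.17 to 0.19. The cause was not tested. In C2-/- libraries 3 reads stood at 0.621 to 1.12 CPM, which limits *Hk1*, *Pgam1*, *Pygb*, *Pfkl* and *Slc2a3*.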
